A study of Homo sapiens with 4 samples.

Results

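Of 19775 genes measured on the arrays, 51 had a lower signal in Siglec-14/THP-1 than in Siglec-5/THP-1 both with and without bacterial stimulation, by a fold bound just under 1.8 (a log2 ratio of -0.81 or lower), and a Siglec-5/THP-1 signal above a floor in both conditions. THP-1 is a human monoblastoid leukemia cell line, here made into a subline that expresses Siglec-14 and a subline that expresses Siglec-5. The cells were incubated for 6 h with heat-killed nontypeable Haemophilus influenzae (NTHi) strain 2019, at 100 bacteria per cell, or without it, in serum-free macrophage medium. The 4 samples, each on 1 Affymetrix U133 Plus 2.0 array for human transcripts made from 250 ng of total RNA, were Siglec-14,NTHi[+], Siglec-5,NTHi[+], Siglec-14,NTHi[-] and Siglec-5,NTHi[-]. A signal is the brightness of a probe set on a linear scale, and the floor lies at the 75th percentile of all signals. Each gene was represented by its brightest probe set among those annotated to that gene alone. The 51 genes were chosen by the line ratio in both conditions and by the Siglec-5/THP-1 signals, so the difference between the lines is given below as a description with no test. The granule genes CTSG, ELANE, PRTN3, AZU1 and MPO were left out by the rule, and of these only CTSG met its numbers. With CTSG counted, 52 of 7561 genes with both Siglec-5/THP-1 signals at or above the floor met them, or 0.688%. The mirrored rule, higher in Siglec-14/THP-1 by the same bound in both conditions, was met by 214 of 7683 genes, or 2.79%.

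Siglec-14 and Siglec-5 are paired sialic acid-binding receptors of myeloid cells with nearly the same extracellular domains. Siglec-14 pairs with the adaptor DAP12, which passes activating signals through Syk, whereas the cytoplasmic tail of Siglec-5 holds inhibitory motifs that recruit phosphatases. Immature myeloid cells are held in the marrow by chemokine receptors and integrins and keep dividing under D-type cyclins. These attachments and the cyclins change as monoblasts mature.

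The sums of all signals ran from 12735500 to 14047100 on the 4 arrays and the medians from 15.1 to 16.5. With 1 array per condition there is no replicate error for any value. As a measure of technical spread, the log2 line ratio of 2681 genes with a second probe set at or above the floor on every array differed between probe sets with an SD per probe set of 0.15 with NTHi and 0.15 without. The brightest SIGLEC5 probe set gave 19.5 in Siglec-14,NTHi[+] and 21.6 in Siglec-5,NTHi[+], and 21.3 in Siglec-14,NTHi[-] and 4.13 in Siglec-5,NTHi[-]. These signals lie near or under the median of all signals, 16.02, so they do not check which receptor a line carries, and SIGLEC14 was not analysed here. Each line is 1 subline, so differences that come from the receptor and those that come from the history of a subline cannot be told apart. Of the monocyte markers, LYZ and ITGAM reached the floor, whereas CD14 and FCGR1A stayed under 16 on all 4 arrays. Summed signals of T-cell, erythroid, mast cell and endothelial markers were at most 72.6 on any array. The summed NK-cell markers were 790 in Siglec-14,NTHi[+] and 259 in Siglec-5,NTHi[+], and 662 in Siglec-14,NTHi[-] and 256 in Siglec-5,NTHi[-]. With and without NTHi, GNLY was the highest of them in Siglec-14/THP-1 (410 and 360) but had 2.14 and 3.71 in Siglec-5/THP-1. There NKG7 was the highest, with 247 and 240. The fibroblast sum was 276 in Siglec-14,NTHi[+] and 154 in Siglec-5,NTHi[+], and 283 in Siglec-14,NTHi[-] and 164 in Siglec-5,NTHi[-]. The B-cell sum, mostly PAX5, was 109 in Siglec-14,NTHi[+] and 134 in Siglec-5,NTHi[+], and 128 in Siglec-14,NTHi[-] and 147 in Siglec-5,NTHi[-]. The megakaryocyte and epithelial sums stayed under the floor on all arrays. NK-cell and fibroblast sums were thus higher and the B-cell sum lower in Siglec-14/THP-1 in both conditions, and their part in the results was not tested.

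The 51 genes differed between the lines by about 2-fold rather than by an order of magnitude. The fold by which the Siglec-14/THP-1 signal was lower ran from 1.751 to 3.03 with NTHi, with a median of 2.00, and from 1.752 to 3.16 without NTHi, with a median of 2.04. On the log2 scale the median line ratio was -1.002 with NTHi and -1.03 without. Over the 7561 genes with Siglec-5/THP-1 signals at or above the floor, the median was 0.03 with NTHi and -0.18 without. Only BMP8B was at least 3-fold lower in both conditions, and 21 genes were at least 2-fold lower in both. Of the 214 genes of the mirrored rule, 84 were at least 3-fold higher in both conditions. All 51 genes had Siglec-14/THP-1 signals above the median of all signals, the lowest being 48.8, and for 36 all 4 signals reached the floor.

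**Figure D1:**
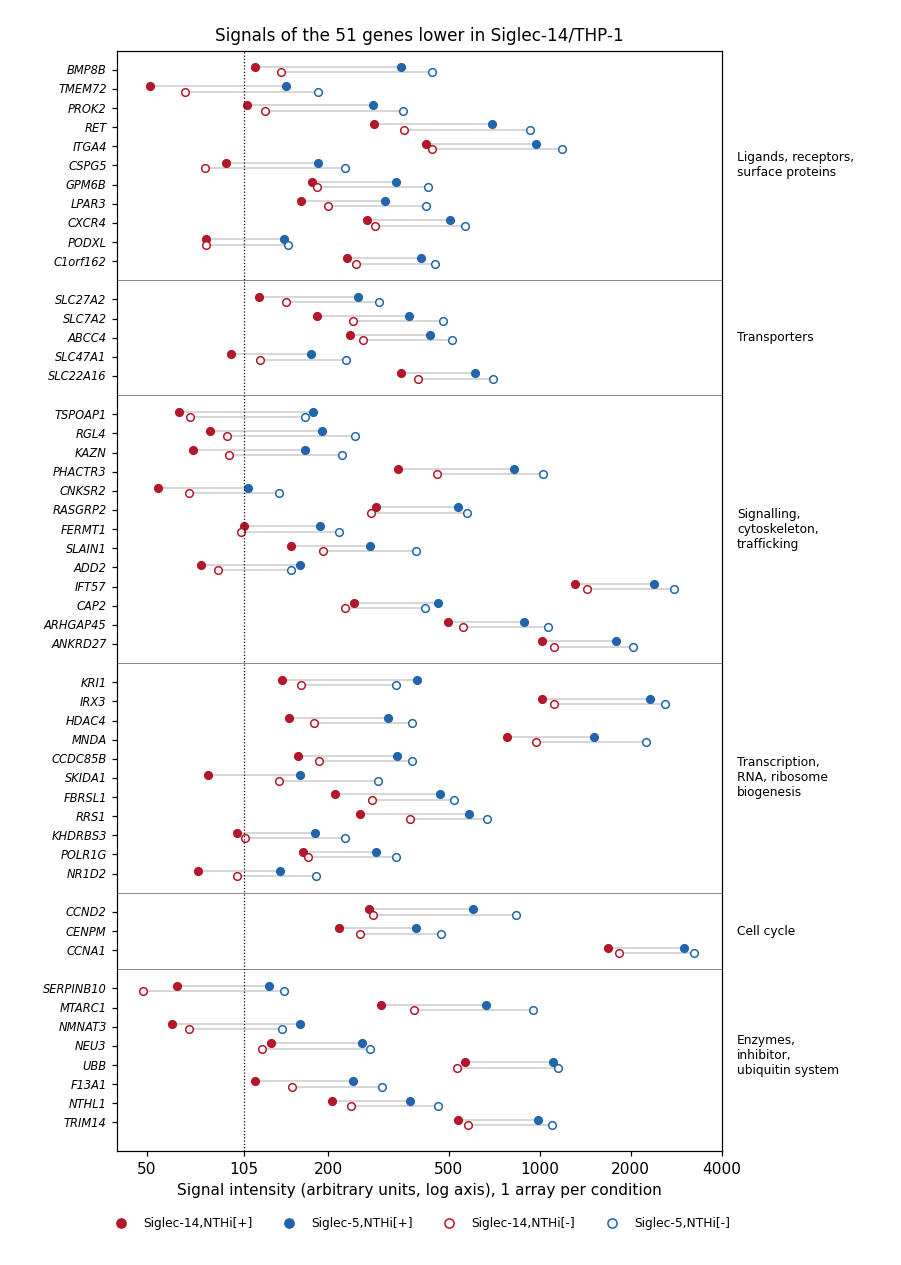
Signal of each of the 51 genes on the 4 arrays, on a log axis in arbitrary units, with genes ordered by role and then by the size of the difference. Red points are Siglec-14/THP-1 and blue points Siglec-5/THP-1, filled with NTHi and open without, and the dotted line marks the floor. In every gene both red points lie left of the blue point of the same condition.

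**Figure D2:**
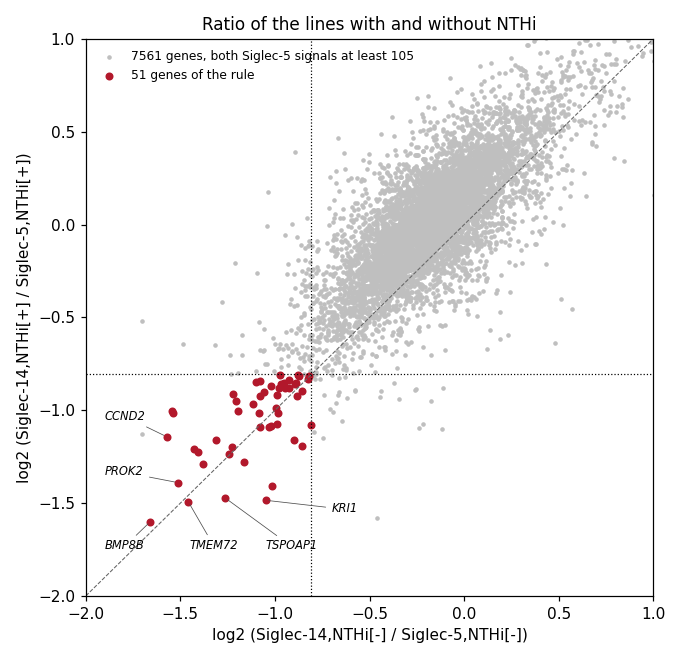
Log2 signal ratio of Siglec-14/THP-1 to Siglec-5/THP-1 without NTHi (x axis) and with NTHi (y axis). Grey points are 7561 genes with both Siglec-5/THP-1 signals at or above the floor, of which 119 lie outside the axes, and red points are the 51 genes. The dotted lines mark the fold bound of the rule, the dashed line equal ratios, and the grey point among the red ones is CTSG, which the rule left out.

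Genes for surface proteins and secreted ligands included the largest difference, with a median fold of 2.02 with NTHi and 2.60 without over 11 genes. BMP8B, a ligand of the bone morphogenetic protein family, had a signal of 114 in Siglec-14,NTHi[+] and 346 in Siglec-5,NTHi[+], and of 139 in Siglec-14,NTHi[-] and 440 in Siglec-5,NTHi[-]. It was 3.03-fold lower with NTHi and 3.16-fold lower without. Its close paralog BMP8A may share the probes, so the value is uncertain between them. PROK2, the secreted chemoattractant prokineticin 2, had 108 in Siglec-14,NTHi[+] and 282 in Siglec-5,NTHi[+], and 123 in Siglec-14,NTHi[-] and 352 in Siglec-5,NTHi[-]. RET, the receptor tyrosine kinase for ligands of the GDNF family, had 284 in Siglec-14,NTHi[+] and 693 in Siglec-5,NTHi[+], and 357 in Siglec-14,NTHi[-] and 927 in Siglec-5,NTHi[-]. PROK2 was 2.62-fold lower with NTHi and 2.85-fold lower without, and RET 2.44-fold and 2.60-fold. On further probe sets of RET the difference was smaller: one was 1.39-fold lower with NTHi and 2.18-fold lower without, and another 1.34-fold and 1.37-fold.

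The promoters of 4 members are shown because BMP8B and PROK2 had large differences between the lines, and SKIDA1 and MNDA had the lowest NTHi ratios in Siglec-5/THP-1. Sequences are from RefSeq on GRCh38.p14, with 250 bases before and 50 after the first listed start of the gene, written 5′ to 3′ on the strand of the gene. Capitals mark matches to 9 short motifs on either strand: MYB (CAACNG), PU.1 (GAGGAAGT), C/EBP (TTGCNNAA), AP-1 (TGANTCA), STAT (TTCCNGGAA), the TATA box (TATAAA), the GC box (GGGCGG), the E-box (CANNTG) and RUNX (TGTGGT). A match to CAACTG counts both as MYB and as an E-box.
BMP8B, chr1:39788816-39789115, minus strand: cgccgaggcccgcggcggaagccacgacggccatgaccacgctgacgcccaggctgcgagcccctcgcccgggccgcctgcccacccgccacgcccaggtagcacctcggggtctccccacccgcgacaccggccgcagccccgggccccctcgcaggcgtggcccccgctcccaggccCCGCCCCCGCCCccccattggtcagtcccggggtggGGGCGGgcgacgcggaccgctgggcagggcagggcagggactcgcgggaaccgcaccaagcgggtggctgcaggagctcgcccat
PROK2, chr3:71785099-71785398, minus strand: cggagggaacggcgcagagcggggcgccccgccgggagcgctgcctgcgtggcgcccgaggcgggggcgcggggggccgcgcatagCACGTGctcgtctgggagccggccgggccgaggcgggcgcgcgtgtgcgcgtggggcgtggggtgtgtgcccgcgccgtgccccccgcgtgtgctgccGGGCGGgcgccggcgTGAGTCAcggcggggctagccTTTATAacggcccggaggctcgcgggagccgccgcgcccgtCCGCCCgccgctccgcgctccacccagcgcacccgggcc
MNDA, chr1:158831101-158831400, plus strand: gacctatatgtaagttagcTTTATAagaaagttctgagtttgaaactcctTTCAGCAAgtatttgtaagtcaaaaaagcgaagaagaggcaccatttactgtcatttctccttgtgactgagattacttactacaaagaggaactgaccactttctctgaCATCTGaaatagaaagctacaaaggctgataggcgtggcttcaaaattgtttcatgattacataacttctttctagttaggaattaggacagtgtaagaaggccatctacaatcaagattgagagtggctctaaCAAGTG
SKIDA1, chr10:21525633-21525932, minus strand: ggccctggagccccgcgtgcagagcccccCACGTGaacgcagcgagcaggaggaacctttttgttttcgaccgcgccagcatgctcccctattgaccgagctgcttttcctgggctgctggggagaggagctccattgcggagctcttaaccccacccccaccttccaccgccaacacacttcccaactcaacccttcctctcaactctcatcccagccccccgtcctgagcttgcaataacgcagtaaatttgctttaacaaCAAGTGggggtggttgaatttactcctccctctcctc
BMP8B holds 3 GC boxes. PROK2 holds 2 GC boxes, an AP-1 match, an E-box and a TATA box. MNDA holds a C/EBP match, a TATA box and 2 E-boxes, and SKIDA1 only 2 E-boxes. The bases also differ, with a GC content of 79.7% for BMP8B, 82.3% for PROK2, 37.0% for MNDA and 58.3% for SKIDA1.

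Promoters were matched for 38 of the 51 genes. GC boxes were found in 65.8% of these, against 71.7% of 6442 promoters of genes with Siglec-5/THP-1 signals at or above the floor and 44.6% of all 27305 promoters. E-boxes were found in 65.8%, against 59.2% and 68.9%. The MYB motif was in 23.7%, against 33.8% and 33.2%. The rest were in few members: C/EBP and the TATA box in 3 each (7.89%), PU.1 and RUNX in 2 each (5.26%), AP-1 in 1 (2.63%) and STAT in 0. Among the 6442 promoters and all promoters, C/EBP was in 6.69% and 10.6%, the TATA box in 4.84% and 11.95%, PU.1 in 2.64% and 2.54%, RUNX in 8.86% and 13.1%, AP-1 in 3.94% and 7.76%, and STAT in 1.27% and 1.22%. Median GC content was 70.0% in the members and 65.3% in the 6442 promoters. These matches are letters in a window of 300 bases and a description only.

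The other surface proteins included an integrin and a chemokine receptor. ITGA4, the α4 integrin subunit that binds VCAM-1 and fibronectin, had a signal of 419 in Siglec-14,NTHi[+] and 969 in Siglec-5,NTHi[+], and of 441 in Siglec-14,NTHi[-] and 1190 in Siglec-5,NTHi[-]. CXCR4, the receptor of the chemokine CXCL12, had 268 in Siglec-14,NTHi[+] and 505 in Siglec-5,NTHi[+], and 286 in Siglec-14,NTHi[-] and 568 in Siglec-5,NTHi[-]. The gap of CXCR4 was thus under 2-fold in both conditions, at 1.89 and 1.98. PODXL, a sialomucin that lowers adhesion, had 78.6 in Siglec-14,NTHi[+] and 143 in Siglec-5,NTHi[+], and 78.7 in Siglec-14,NTHi[-] and 146 in Siglec-5,NTHi[-]. LPAR3, a receptor for lysophosphatidic acid, had 163 in Siglec-14,NTHi[+] and 309 in Siglec-5,NTHi[+], and 199.6 in Siglec-14,NTHi[-] and 421 in Siglec-5,NTHi[-]. The membrane proteins TMEM72, CSPG5, GPM6B and C1orf162 completed the group, with folds from 1.76 to 2.91. CSPG5, a chondroitin sulfate proteoglycan, was 2.02-fold lower with NTHi and 2.91-fold lower without.

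The 5 transporter genes had a median fold of 1.84 with NTHi and 1.97 without. SLC27A2, an acyl-CoA synthetase for very long-chain fatty acids, had 117 in Siglec-14,NTHi[+] and 250 in Siglec-5,NTHi[+], and 144 in Siglec-14,NTHi[-] and 295 in Siglec-5,NTHi[-]. SLC7A2, which imports arginine and other cationic amino acids, had 184 in Siglec-14,NTHi[+] and 371 in Siglec-5,NTHi[+], and 242 in Siglec-14,NTHi[-] and 479 in Siglec-5,NTHi[-]. The efflux pump gene ABCC4 was 1.84-fold lower with NTHi and 1.97-fold lower without. SLC47A1, an exporter of organic cations, and SLC22A16, a carnitine transporter, were lower by 1.84-fold and 1.76-fold with NTHi, and by 1.93-fold and 1.76-fold without.

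Among 13 genes of signaling, cytoskeleton and membrane traffic, TSPOAP1 stood first. This gene for a partner of the mitochondrial protein TSPO had 64.1 in Siglec-14,NTHi[+] and 178 in Siglec-5,NTHi[+], and 69.8 in Siglec-14,NTHi[-] and 167 in Siglec-5,NTHi[-]. Several regulate small GTPases. RGL4, an exchange factor of the Ral type, had 81.1 in Siglec-14,NTHi[+] and 190 in Siglec-5,NTHi[+], and 92.5 in Siglec-14,NTHi[-] and 246 in Siglec-5,NTHi[-]. RASGRP2, an exchange factor for Rap1, had 288 in Siglec-14,NTHi[+] and 537 in Siglec-5,NTHi[+], and 277 in Siglec-14,NTHi[-] and 576 in Siglec-5,NTHi[-]. ANKRD27, which activates a Rab GTPase, had 1020 in Siglec-14,NTHi[+] and 1789 in Siglec-5,NTHi[+], and 1111 in Siglec-14,NTHi[-] and 2044 in Siglec-5,NTHi[-], and was among the genes nearest to the bound. In each of these GTPase regulators Siglec-14/THP-1 was lower by 1.754-fold to 2.65-fold. PHACTR3, which binds actin and protein phosphatase 1, had 339 in Siglec-14,NTHi[+] and 822 in Siglec-5,NTHi[+], and 458 in Siglec-14,NTHi[-] and 1025 in Siglec-5,NTHi[-]. FERMT1, a kindlin that activates integrins, had 104.7 in Siglec-14,NTHi[+] and 188 in Siglec-5,NTHi[+], and 103 in Siglec-14,NTHi[-] and 217 in Siglec-5,NTHi[-]. The remaining genes were KAZN, CNKSR2, SLAIN1, ADD2, IFT57, ARHGAP45 and CAP2, with folds from 1.752 to 2.37. Of these, CAP2 binds actin, ADD2 encodes an adducin of the membrane skeleton, SLAIN1 acts on microtubules and IFT57 belongs to the intraflagellar transport complex.

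The 11 nuclear genes included transcription regulators and factors of ribosome assembly. IRX3, a homeobox transcription factor, had a signal of 1015 in Siglec-14,NTHi[+] and 2324 in Siglec-5,NTHi[+], and of 1114 in Siglec-14,NTHi[-] and 2604 in Siglec-5,NTHi[-]. HDAC4, a class IIa histone deacetylase, had 148 in Siglec-14,NTHi[+] and 315 in Siglec-5,NTHi[+], and 179 in Siglec-14,NTHi[-] and 378 in Siglec-5,NTHi[-]. The ratio of the lines for IRX3 and HDAC4 was nearly the same in both conditions. MNDA, a nuclear protein of the myeloid lineage, had 782 in Siglec-14,NTHi[+] and 1510 in Siglec-5,NTHi[+], and 974 in Siglec-14,NTHi[-] and 2249 in Siglec-5,NTHi[-]. KRI1, RRS1 and POLR1G act in making ribosomes. KRI1 had 140 in Siglec-14,NTHi[+] and 392 in Siglec-5,NTHi[+], and 161.9 in Siglec-14,NTHi[-] and 335 in Siglec-5,NTHi[-]. RRS1 had 255 in Siglec-14,NTHi[+] and 584 in Siglec-5,NTHi[+], and 371 in Siglec-14,NTHi[-] and 671 in Siglec-5,NTHi[-]. POLR1G, a subunit of RNA polymerase I, had 165 in Siglec-14,NTHi[+] and 288 in Siglec-5,NTHi[+], and 171 in Siglec-14,NTHi[-] and 336 in Siglec-5,NTHi[-]. NR1D2, a nuclear receptor of the circadian clock, KHDRBS3, an RNA-binding protein, CCDC85B, FBRSL1 and SKIDA1 were lower by 1.80-fold to 2.24-fold.

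The cell cycle group held CCND2, CCNA1 and CENPM. CCND2, cyclin D2, had 272 in Siglec-14,NTHi[+] and 600 in Siglec-5,NTHi[+], and 280 in Siglec-14,NTHi[-] and 835 in Siglec-5,NTHi[-], a fold of 2.21 with NTHi and 2.98 without. CCNA1, the A-type cyclin of germ cells and myeloid leukemia, had 1686 in Siglec-14,NTHi[+] and 3004 in Siglec-5,NTHi[+], and 1831 in Siglec-14,NTHi[-] and 3240 in Siglec-5,NTHi[-]. CENPM, a centromere protein, had 216 in Siglec-14,NTHi[+] and 391 in Siglec-5,NTHi[+], and 254 in Siglec-14,NTHi[-] and 470 in Siglec-5,NTHi[-]. Of 26 measured genes in a list for cell cycle and DNA replication, only CCND2 was among the 51, and the median log2 line ratio of the list was -0.04 with NTHi and -0.31 without, against 0.06 and -0.12 over 13937 genes with a signal of at least 16. Of the 26, 23 had both Siglec-5/THP-1 signals at or above the floor, where the medians of the 7561 genes were 0.03 and -0.18. By any amount, 14 of the 26 (against 34.7% of the 13937 genes) were lower in both conditions. Besides CCND2, E2F1 met the fold bound in both, at 1.84 with NTHi and 1.77 without. Its Siglec-5/THP-1 signals, 86.0 and 83.0, were under the floor. In contrast, MKI67, which marks dividing cells, had 484 in Siglec-14,NTHi[+] and 335 in Siglec-5,NTHi[+], and 392 in Siglec-14,NTHi[-] and 337 in Siglec-5,NTHi[-].

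The last 8 genes encode enzymes, a protease inhibitor and members of the ubiquitin system. SERPINB10, a serpin of hematopoietic cells, had 63.2 in Siglec-14,NTHi[+] and 127 in Siglec-5,NTHi[+], and 48.8 in Siglec-14,NTHi[-] and 143 in Siglec-5,NTHi[-]. NEU3, the plasma membrane sialidase that cleaves gangliosides, had 129 in Siglec-14,NTHi[+] and 258 in Siglec-5,NTHi[+], and 120 in Siglec-14,NTHi[-] and 275 in Siglec-5,NTHi[-]. F13A1, the A subunit of coagulation factor XIII made by monocytes and megakaryocytes, had 114 in Siglec-14,NTHi[+] and 241 in Siglec-5,NTHi[+], and 152 in Siglec-14,NTHi[-] and 301 in Siglec-5,NTHi[-]. MTARC1, a molybdenum enzyme of mitochondria, was 2.23-fold lower with NTHi and 2.48-fold lower without. NMNAT3 makes NAD+ and NTHL1 removes oxidized bases from DNA. NMNAT3 was 2.66-fold and 2.02-fold lower and NTHL1 1.81-fold and 1.93-fold, with and without NTHi. TRIM14 was 1.84-fold lower with NTHi and 1.90-fold lower without. UBB, a polyubiquitin gene, had 567 in Siglec-14,NTHi[+] and 1108 in Siglec-5,NTHi[+], and 533 in Siglec-14,NTHi[-] and 1154 in Siglec-5,NTHi[-], and its repeats resemble those of other polyubiquitin genes, so its probes may share them.

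On either side of the bound the values ran on without a gap. POLR1G, with a smaller fold of 1.751, ADD2 with 1.752 and ANKRD27 with 1.754 lay just inside the ratio bound. MYADM with 1.747, IL18R1 with 1.745 and MPP7 with 1.744 lay just outside. At the floor on the Siglec-5/THP-1 signals, the lower of the pair was 108 for CNKSR2, 127 for SERPINB10 and 138 for NR1D2. It was 100.3 for TIGD5, 96.8 for TSPAN32 and 94.8 for FJX1, which met both ratios and missed the floor.

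Most probe sets that the rule had not used gave the same direction where their 4 signals were at or above 16. Of the 51 genes, 31 had 66 further probe sets, which read the same RNA on the same arrays and so are no replicates. All 12 with 4 signals at or above the floor, from 10 genes, were lower in Siglec-14/THP-1 in both conditions, and 35 of the 38 with 4 signals at or above 16 were so. The others were a probe set each of RASGRP2 and ADD2, higher in Siglec-14/THP-1 with NTHi, and of ABCC4, higher without. Among the second and further probe sets of all genes, 42.8% of 3912 and 35.6% of 9057 were lower in both conditions under the same floors. The size was smaller than on the probe sets of the rule, with a median log2 line ratio of -0.64 with NTHi and -0.86 without for the 38. The fold bound of the rule was met in both conditions by 3 of the 12 and 6 of the 38. ITGA4 was measured on 3 more probe sets, the brightest of which had 210 in Siglec-14,NTHi[+] and 476 in Siglec-5,NTHi[+], and 228 in Siglec-14,NTHi[-] and 579 in Siglec-5,NTHi[-]. GPM6B and CCND2 were lower on every further probe set that stayed above 16, whereas a probe set of CXCR4 had 150 in Siglec-14,NTHi[-] and 169.5 in Siglec-5,NTHi[-]. Of the 28 probe sets with a signal under 16 on some array, 11 were lower in both conditions.

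**Figure D3:**
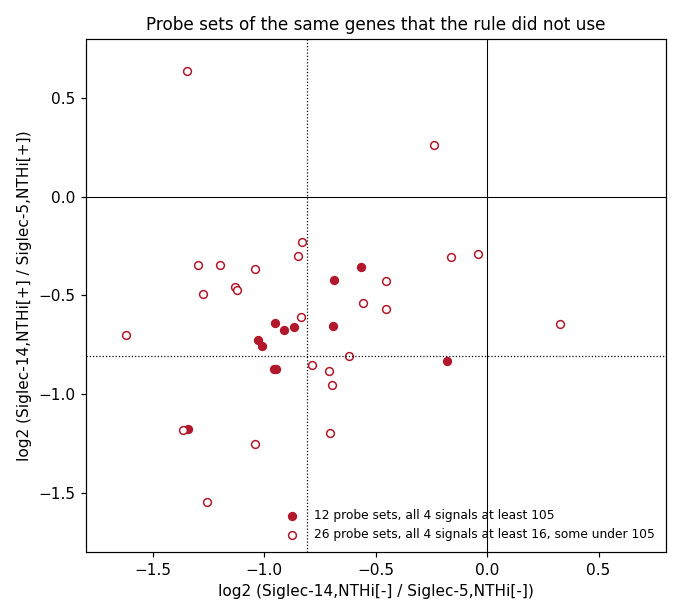
Log2 signal ratio of Siglec-14/THP-1 to Siglec-5/THP-1 without NTHi (x axis) and with NTHi (y axis) for 38 further probe sets of the 51 genes, with the fold bound of the rule dotted. Filled points have all 4 signals at or above the floor and open points have some signal between 16 and the floor. All 12 filled points and 35 of the 38 points lie at the lower left, below 0 on both axes.

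The NTHi ratio, NTHi[+] over NTHi[-] within a line, was not part of the rule but is made from the same 4 signals. The difference between the NTHi ratios of the lines equals the difference between the line ratios with and without NTHi, which the rule bounded alike, so the NTHi ratios are not independent of the choice and are given as a description. In Siglec-14/THP-1, 44 of 51 were lower with NTHi by any amount (86.3%), against 27.8% of the 7561 genes. In Siglec-5/THP-1, 46 of 51 were lower (90.2%), against 76.6%. Both lines were lower for 40 of 51 genes (78.4%), against 24.1%, and CAP2 was the only gene higher in both. The median log2 ratio was -0.19 in Siglec-14/THP-1, where that of the 7561 genes was 0.09, and -0.26 in Siglec-5/THP-1, where it was -0.11. The shares depend on the scaling of the arrays: with each array scaled to the same trimmed mean, 46 and 42 of 51 genes were lower in Siglec-14/THP-1 cells and Siglec-5/THP-1 cells, against 49.2% and 50.5% of the 7561 genes. Among the 36 genes with 4 signals at or above the floor, 32 were lower with NTHi in Siglec-14/THP-1 and 34 in Siglec-5/THP-1, against 27.2% and 76.8% of 7336 genes above the same floor. On the 38 further probe sets with 4 signals at or above 16, which did not choose the genes, 21 were lower with NTHi in Siglec-14/THP-1, against 39.7% of such probe sets of all genes, and 33 in Siglec-5/THP-1, against 70.0%. Their median log2 ratio was -0.04 in Siglec-14/THP-1, where that of all genes was 0.06, and -0.26 in Siglec-5/THP-1, where it was -0.12. No p-value is given, since each condition is 1 array.

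At a 1.5-fold bound 1 of the 51 genes was lower with NTHi in Siglec-14/THP-1 and 1 in Siglec-5/THP-1, against 0.251% and 0.635% of the 7561 genes. That gene was SKIDA1 in both lines, where 0.0661% of the genes, 5 in number, met the bound in both. SKIDA1, which encodes a protein with a SKI/DACH domain and whose promoter is printed with that of BMP8B, had 79.7 in Siglec-14,NTHi[+] and 137 in Siglec-14,NTHi[-], and 161 in Siglec-5,NTHi[+] and 292 in Siglec-5,NTHi[-]. Its log2 ratio was -0.79 in Siglec-14/THP-1 and -0.86 in Siglec-5/THP-1. A dimmer probe set of SKIDA1 had 25.9 and 22.4 in Siglec-14/THP-1, with NTHi and without, and 32.9 and 51.4 in Siglec-5/THP-1, so that the direction in Siglec-14/THP-1 was not the same on both probe sets. No gene of the 51 was at least 1.5-fold higher with NTHi, against 1.44% of the 7561 genes in Siglec-14/THP-1 and 0.78% in Siglec-5/THP-1.

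Below that bound, the lowest ratio was that of RRS1 in Siglec-14/THP-1 and that of MNDA in Siglec-5/THP-1. RRS1 had 255 in Siglec-14,NTHi[+] and 371 in Siglec-14,NTHi[-], a log2 ratio of -0.54, and -0.20 in Siglec-5/THP-1. MNDA had 1510 in Siglec-5,NTHi[+] and 2249 in Siglec-5,NTHi[-], a ratio of -0.58, and -0.32 in Siglec-14/THP-1. NR1D2, PHACTR3, KAZN, SLC7A2, MTARC1, RET, TMEM72, F13A1, CNKSR2 and SLAIN1 were between -0.32 and -0.51 in both lines. All 5 transporter genes and all 3 cell cycle genes had lower signals with NTHi in both lines, as did 78.4% of the 51 genes and 24.1% of the 7561 genes. On the other side, SERPINB10 had the highest ratio in Siglec-14/THP-1, 0.37, and -0.17 in Siglec-5/THP-1, and KRI1 had the highest in Siglec-5/THP-1, 0.23, and -0.21 in Siglec-14/THP-1. A second KRI1 probe set, with 4 signals above the floor, had the opposite signs, with 0.10 in Siglec-14/THP-1 and -0.11 in Siglec-5/THP-1. The signs differed between the lines for 10 of the 51 genes, none of which passed 1.5-fold in either line. Over the 7561 genes, 27.8% were lower in Siglec-14/THP-1, 76.6% in Siglec-5/THP-1 and 24.1% in both, so differing signs were more common there than among the 51. These shares depend on the scaling, since with the trimmed mean 49.2% were lower in Siglec-14/THP-1 and 50.5% in Siglec-5/THP-1. Across the 51 genes the ratios of the lines, which share no array, had a Pearson r of 0.51, and across the 7561 genes of 0.46, as a description over genes, which are not independent.

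**Figure D4:**
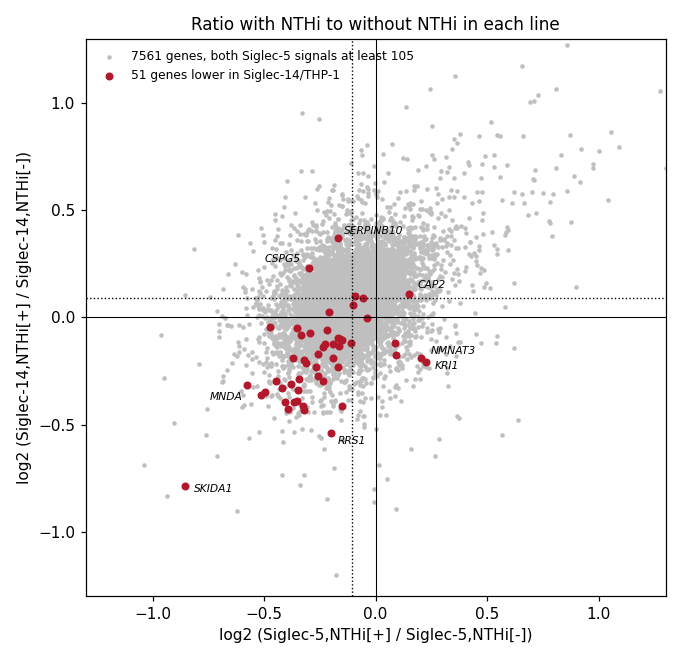
Log2 signal ratio of NTHi[+] to NTHi[-] in Siglec-5/THP-1 (x axis) and Siglec-14/THP-1 (y axis), with the 51 genes in red and the 7561 genes with both Siglec-5/THP-1 signals at or above the floor in grey, 13 of which lie outside the axes. Solid lines mark no difference and dotted lines the medians of the grey points. Of the red points, 40 lie below 0 on both axes, and SKIDA1 is farthest down.

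As deposited, the gap between the lines was narrower with NTHi for 35 of the 51 genes and wider for 16, while the log2 line ratio was higher with NTHi than without for 86.6% of the 7561 genes. The count turned with the scaling: with the trimmed mean, 8 of the 51 genes were narrower with NTHi, against 50.5% of the 7561 genes with a higher log2 line ratio. The log2 line ratio with NTHi minus that without had a median of 0.07 for the 51 genes and of 0.20 over the 7561 genes. SERPINB10 and CSPG5 had the highest values, 0.54 and 0.53, and CCND2 had 0.43. For SERPINB10 and CSPG5 the Siglec-14/THP-1 signal was higher with NTHi than without while the Siglec-5/THP-1 signal was lower. For CCND2 almost all of the change on its brightest probe set was in Siglec-5/THP-1. A dimmer CCND2 probe set was 1.94-fold lower with NTHi and 1.62-fold lower without, so its gap was wider with NTHi. Its NTHi log2 ratio was -0.45 in Siglec-14/THP-1 and -0.20 in Siglec-5/THP-1. KRI1, NMNAT3 and RRS1 had the lowest values, -0.44, -0.39 and -0.34. The direction for KRI1 and NMNAT3 rests on 1 probe set each, since a further probe set gave 0.21 for KRI1 and 0.68 for NMNAT3. As these values are made from the ratios that chose the genes, they are a description.

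Of 18 gene lists, 3 held a gene of the 51. Only genes with both Siglec-5/THP-1 signals at or above the floor could be members, and 0.688% of these met the rule with CTSG counted. Lists of this size are thus too small for 0 members to tell much. The 17 measured chemoattractant, purine and lipid receptors held CXCR4, while 4 of them were higher in Siglec-14/THP-1 by the fold bound in both conditions. Over all genes the share so higher was not counted at a signal of 16. It was 2.79% where both Siglec-14/THP-1 signals reached the floor. FPR1, a receptor for formyl peptides of bacteria, was among the 4, with 205 in Siglec-14,NTHi[+] and 24.2 in Siglec-5,NTHi[+], and 149 in Siglec-14,NTHi[-] and 21.4 in Siglec-5,NTHi[-]. The 18 measured genes for granule proteins held SERPINB10, and their median log2 line ratio was 0.18 with NTHi and -0.20 without. Of the granule genes that the rule left out, CTSG, cathepsin G, had 508 in Siglec-14,NTHi[+] and 1112 in Siglec-5,NTHi[+], and 403 in Siglec-14,NTHi[-] and 1311 in Siglec-5,NTHi[-], and MPO, myeloperoxidase, was 1.60-fold and 2.09-fold lower, whereas ELANE was 1.02-fold and 1.12-fold lower. The third list was that of the cell cycle. Immature myeloid and stem cell genes had no member among the 51. The list's median log2 line ratio was -0.30 with NTHi and -0.33 without over 19 genes. Of these, 13 had both Siglec-5/THP-1 signals at or above the floor, where the medians of the 7561 genes were 0.03 and -0.18. By any amount, 10 of the 19 were lower in both conditions, against 34.7% of the 13937 genes with a signal of at least 16. MS4A3, a membrane protein of myeloid progenitors, had 2590 in Siglec-14,NTHi[+] and 4093 in Siglec-5,NTHi[+], and 2524 in Siglec-14,NTHi[-] and 4485 in Siglec-5,NTHi[-]. MYB, a transcription factor of progenitors, was 1.52-fold lower with NTHi and 1.60-fold lower without. Others of the list were higher in Siglec-14/THP-1 in both conditions. SOX4, a transcription factor, had 289 in Siglec-14,NTHi[+] and 206 in Siglec-5,NTHi[+], and 334 in Siglec-14,NTHi[-] and 207 in Siglec-5,NTHi[-], and CEBPE and MEIS1 were also higher in both. None of the 22 measured NF-κB targets, cytokines and chemokines was among the 51, and 8 of them had both Siglec-5/THP-1 signals at or above the floor. Of the 22, 15 were higher in Siglec-14/THP-1 by the fold bound in both conditions, again with no share counted at a signal of 16. The lists for monocyte genes, MHC class II, interferon-stimulated genes, cholesterol synthesis, amino acid stress, the respiratory chain, ribosomal proteins, lysosomes, glycolysis, Siglecs and markers of other cell types also held 0 of the 51. Some had few genes that could be members, such as 1 of 11 for MHC class II.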

How the data were processed

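RNA from 4 cell samples, 1 per condition, was measured on Affymetrix U133 Plus 2.0 arrays. The authors read the signals out with GeneChip Operating Software (GCOS, version not given in the sources used here) and, by the methods of the study, standardized signals on the cumulative signal of all probes. The deposited values are linear signal intensities, 1 for each of 54675 probe sets, and were used without further scaling. Their sums differ between arrays, so whether they carry that standardization is not settled.

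Probe sets were joined to genes with the platform's annotation: 41097 have 1 gene, 1801 several and 11777 none. All 51 members matched a current RefSeq gene and 0 symbols changed. The brightest probe set by mean over the 4 arrays stood for a gene. Members had both ratios at 1.75 or more and both Siglec-5/THP-1 signals at 105 or more. Signals under the median of all signals, 16.0, were treated as dim. Detection calls were not used.

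With 1 array per condition, no test was run and no p-value is given, including for the NTHi ratio. Counts are set beside the same share over 7561 genes. A fit over all 4 arrays has 1 residual degree of freedom per gene and was not used. Alternatives were 4 scalings, ratio bounds of 1.5 and 2, floors of 60 and 200, other choices of probe set, 32 added to each signal, an NTHi bound of 2-fold and gene lists without the filter at 16. Leaving out probe sets named _s_at or _x_at and reading the NTHi ratio on probe sets that the rule did not use were added after seeing the data.

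The members, the 18 gene lists and the motifs were chosen with earlier results of these data known. Genes are named by rule: the 25 members with the largest differences, the 10 with the highest Siglec-5/THP-1 signals, list members, those past 1.5-fold with NTHi, those nearest to a bound, and SIGLEC5. The text names the remaining members too. FPR1, MS4A3, MYB, SOX4, CEBPE, MEIS1, MKI67, E2F1 and the non-member values beside them were chosen after their values were seen. The code of the rule was checked on simulated signals, with a drop planted in bright genes that was larger than that of nearly all members. That check does not cover dimmer genes or folds near those of most members. Python 3.11.15 with numpy 2.4.6, pandas 2.3.3 and matplotlib 3.10.9 was used.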

Additional observations from a re-analysis of the deposited data

How the results depend on the processing

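The number of genes met by the rule depends on the scaling and the bound. Scaled to a common median, the arrays gave 84 genes, among them all 51. The other scalings gave 43 (trimmed mean), 46 (sum) and 47 (quantile), of which 37, 37 and 38 were among the 51. A ratio of 1.5 gave 177 genes and a ratio of 2 gave 21. Taking the geometric mean of the probe sets of a gene gave 28, of which 23 were among the 51, and asking every probe set of a gene to meet the rule gave 21. Floors of 60 and 200 gave 68 and 36. Without probe sets named _s_at or _x_at 40 genes met it, 39 of them among the 51, an alternative added after seeing the data.

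The median log2 line ratio with NTHi was -0.84 with 32 added to each signal. Of 612 line ratios of single genes under the alternatives, 91 moved by more than the spread between probe sets without changing sign, such as KAZN with NTHi at -0.03 and NEU3 with NTHi at -0.25 under the geometric mean. The sign changed for SLC7A2 at 0.51 and TRIM14 at 0.30, both with NTHi and under the geometric mean, whose dimmest probe sets had Siglec-5/THP-1 signals under 1. The medians of the NTHi ratio were below 0 in both lines under every alternative run, including the probe sets that the rule did not use. Those of the genes compared were below 0 too, in Siglec-5/THP-1 throughout and in Siglec-14/THP-1 under the sum and quantile normalization. The median of the members minus that of the 7561 genes was -0.28 in Siglec-14/THP-1 and -0.15 in Siglec-5/THP-1 with the trimmed mean. Under the geometric mean it was -0.21 and -0.15. The number of genes whose gap was narrower with NTHi, 35 as deposited, was 22 with the common median, 8 with the trimmed mean and the sum, and 10 with quantile normalization. The 7561 genes shifted too. Their log2 line ratio was higher with NTHi for 86.6% as deposited and 76.5% with the common median. With the trimmed mean, the sum and quantile normalization it was so for 50.5%, 49.4% and 49.0%. The count of genes at least 1.5-fold lower with NTHi in Siglec-14/THP-1 was 2 under the trimmed mean, the sum and quantile normalization. Of the 7561 genes, 0.476%, 0.675% and 0.489% met the bound there. The count was also 2 under the geometric mean, where 3.70% of the 7561 genes met the bound. It was 0 at 2-fold and among genes whose 4 signals reached the floor. In Siglec-5/THP-1 it was 8 under the geometric mean, where 4.999% of the 7561 genes met it, and 0 under the same 2 settings. The number of arrays limits the precision, and no replicate could be left out.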

Other observations

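Over all probe sets, 62 annotated to 1 gene met the numbers of the rule, as did 5 probe sets listed for several genes and 2 listed for no gene. Probe sets of several genes or of none are not counted under a gene's name.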
